A study of Mus musculus with 2 samples.

Results

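The T cell receptor (TCR) complex and its coreceptors were followed here as 10 genes, chosen by name and matched to probes through RefSeq accessions, out of 20647 genes matched on the array. They were the 4 chains of the CD3 signalling module (Cd3e, Cd3d, Cd3g and Cd247), the coreceptors Cd4, Cd8a and Cd8b1, the kinases Lck and Zap70, and the adaptor Lat. Both mouse cultures are labelled T helper 9 (TH9), a type of CD4 T cell named for the cytokine IL-9. They were started from naive cells of spleen and lymph node, sorted as CD4+TCR+CD62Lhi CD44lo. Both cultures were activated with anti-CD3 at 2 µg/ml, anti-CD28 at 2 µg/ml and human IL-2 at 100 U/ml, and received IL-4 at 10 ng/ml and TGFβ1 at 2 ng/ml for 5 days. The genotypes were wild-type and SIRT1flox/flox-CD4-Cre, whose array is called knockout-labelled below. Cre driven by Cd4 is active from the thymic stage at which T cells carry both coreceptors, so it acts in the CD8 lineage too. Each genotype had 1 array with 1 colour (Cy3). The sources used here give no strain, age or number of animals. There was no replicate, so the genotypes could not be tested against each other and each error below is the scanner's for 1 array pair. The Sirt1 probe gave 3240 on the wild-type and 2920 on the knockout-labelled array (-0.08 ± 0.20). Where in the transcript this probe lies was not known here, so it checks nothing of the label, and every direction below rests on that label.

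The TCR recognises peptide bound to MHC through its variable chains, which have almost no cytoplasmic part of their own. The CD3 chains carry the tyrosine motifs that LCK phosphorylates, ZAP-70 docks on them, and ZAP-70 then phosphorylates LAT, the scaffold on which calcium, Ras and NF-kB signalling is assembled. CD4 binds MHC class II and CD8 binds MHC class I, both bring LCK to the receptor, and mature helper T cells keep CD4 and silence CD8.

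All 10 genes, by all 13 of their probes (31 spots), were well above background on both arrays, as called by the scanner software, as were 57.1% of gene spots on the wild-type and 65.3% on the knockout-labelled array. No member spot was saturated. Differences are knockout minus wild-type of the log2 processed signal after each array's 75th percentile over gene probes was subtracted, with the scanner's own error. That error is given by the scanner software, not measured from repeats. By the brightest probe it was 0.20 for every member but Cd247 (0.25). For a probe with several spots it is the mean of their errors, not the error of their mean. A gene with several probes was represented by the brightest. Of the 10 members, 1 was at least 2-fold lower on the knockout-labelled array and 0 were at least 2-fold higher. Among the 12955 genes well above background on both arrays, 3.64% were at least 2-fold lower and 3.95% at least 2-fold higher, 7.59% in either direction. With centring on the median, which moved the median of all genes to 0.19, 73.3% of the 2-fold calls were higher, against 52.1% here. That share was 63.8% with quantile normalization, 61.3% with loess, 63.9% in the authors' deposited table and 15.0% with another background correction (normexp).

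The members did not differ in 1 direction. Cd3e, Cd3g and Cd247 were lower on the knockout-labelled array and Lat was higher, as were Cd8a and Cd8b1 by their brighter or only probe. Cd3d, Lck and Zap70 differed by at most 0.25, and Cd4 by less than the scanner error. In all, 6 were higher and 4 lower, against 50.4% of all genes above 0 and 49.6% below. The members' median difference was 0.23, where the median of all genes was 0.0032. Their range ran from -1.13 for Cd3e to 0.92 for Lat, against quartiles of -0.30 and 0.28 over all genes. Beyond the scanner error, 6 members were higher and 3 lower, and 29.9% and 30.6% of all genes were.

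**Figure D1:**
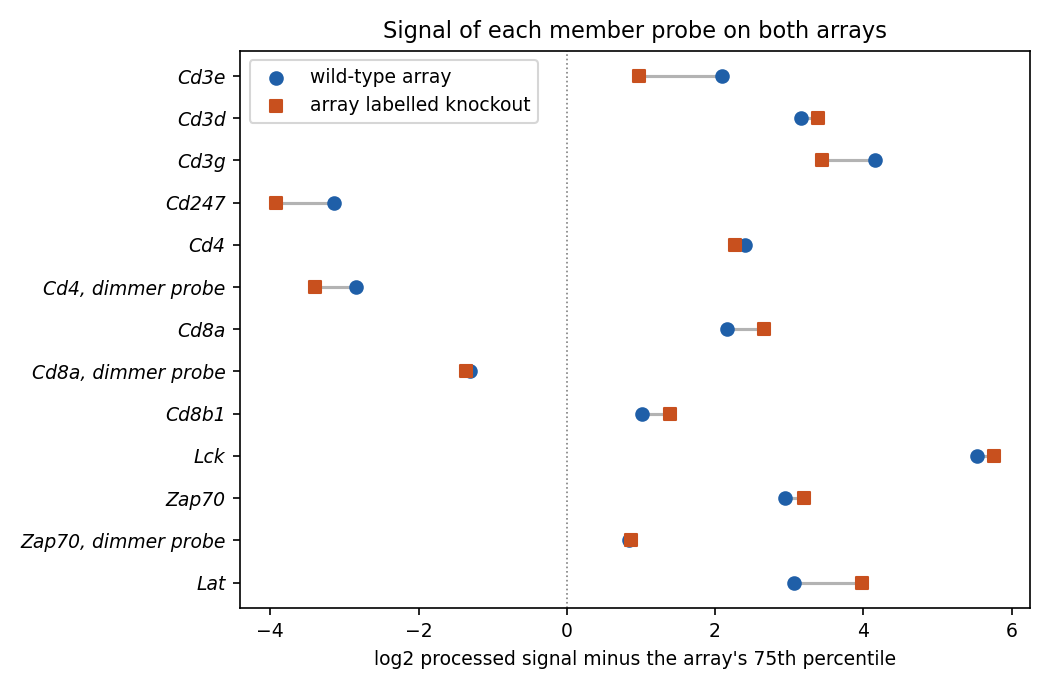
Each row is 1 probe of a member gene, and the x axis is its log2 processed signal minus the array's 75th percentile, with a circle for the wild-type array and a square for the knockout-labelled array. Cd3e, Cd3g and Cd247 lie further left on the knockout-labelled array, and Lat, Cd8a and Cd8b1 further right by their brighter or only probe. Positions of different rows are not comparable as levels.

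The CD3 genes Cd3g, Cd3d and Cd3e neighbour each other on chromosome 9 with 0 annotated genes between them, and their values differed. The windows around their transcription starts are shown so that the 3 neighbours can be read side by side, with that of Lat, the member with the highest difference. Each runs from 250 bases before to 50 after the start, 5′ to 3′ on the gene's own strand, from RefSeq on GRCm38.p6. Capitals mark matches on either strand to the core bound by GATA factors (spelled AGATAA), by ETS factors (spelled AGGAAG) or by RUNX factors (spelled TGTGGT), to an E-box form (spelled CAGNTG) or to a TATA box (spelled TATAAA).
Cd3e, chr9:45009562-45009861, minus strand: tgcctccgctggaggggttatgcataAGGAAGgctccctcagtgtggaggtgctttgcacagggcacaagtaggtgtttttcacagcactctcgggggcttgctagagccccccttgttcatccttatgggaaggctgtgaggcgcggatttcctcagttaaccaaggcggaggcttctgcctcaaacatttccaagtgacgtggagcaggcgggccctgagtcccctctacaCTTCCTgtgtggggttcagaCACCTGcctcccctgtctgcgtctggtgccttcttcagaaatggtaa
Cd3g, chr9:44980382-44980681, minus strand: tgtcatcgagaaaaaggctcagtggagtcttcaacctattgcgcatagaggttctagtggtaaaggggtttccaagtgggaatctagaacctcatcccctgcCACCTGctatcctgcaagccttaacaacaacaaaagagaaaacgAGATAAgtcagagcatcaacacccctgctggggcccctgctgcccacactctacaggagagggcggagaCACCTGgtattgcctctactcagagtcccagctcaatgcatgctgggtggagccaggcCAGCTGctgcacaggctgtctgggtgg
Cd3d, chr9:44981536-44981835, plus strand: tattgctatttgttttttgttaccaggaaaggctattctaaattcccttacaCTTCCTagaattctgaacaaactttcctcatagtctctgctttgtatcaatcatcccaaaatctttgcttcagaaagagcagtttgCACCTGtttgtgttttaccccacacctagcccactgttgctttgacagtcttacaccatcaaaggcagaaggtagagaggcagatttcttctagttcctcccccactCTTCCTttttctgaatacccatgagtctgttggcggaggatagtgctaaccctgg
Lat, chr7:126369519-126369818, minus strand: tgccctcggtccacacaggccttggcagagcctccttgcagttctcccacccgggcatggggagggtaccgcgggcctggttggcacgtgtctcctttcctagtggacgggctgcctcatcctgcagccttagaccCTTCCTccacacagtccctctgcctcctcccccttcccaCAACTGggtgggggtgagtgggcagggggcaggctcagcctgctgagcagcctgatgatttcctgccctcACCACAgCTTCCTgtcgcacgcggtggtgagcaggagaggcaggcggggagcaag
The Cd3e and the Cd3d window each held 2 ETS cores and 1 E-box form, while the Cd3g window held 3 E-box forms, 1 GATA core and 0 ETS cores. The Lat window held 2 ETS cores, 1 E-box form and 1 RUNX core. No RUNX core was found in the 3 CD3 windows and no TATA box in any of the 4. Matches did not overlap one another. Of all 32851 windows in the same RefSeq table, 35.4% held the ETS core, 51.4% the E-box form, 11.2% the GATA core, 16.8% the RUNX core and 13.6% the TATA box. The GC content was 56.7% for Cd3e, 54% for Cd3g, 42.3% for Cd3d and 65.7% for Lat, with a median of 52.7% over all windows. These matches describe letters only. Of the 10 members, 8 were in that table.

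Cd3e encodes the CD3 epsilon chain, which pairs with the delta and the gamma chain and is the chain that anti-CD3 antibody 2C11 binds. Its processed signal was 2330 on wild-type and 1020 on the knockout-labelled array. This was the 1 member past 2-fold, 2.18-fold lower, or -1.13 ± 0.20 in log2 units (scanner error). Among 2267 probes of like signal, between 1000 and 2000, the median difference was 0.03 with an SD of 0.49, and 2.29% were at least 2-fold lower. Cd3e was within 2-fold under median centring (-0.94) or normexp (-0.86), and was lower under each of the 11 alternatives tried. Those that differ only in the choice of probe or the background filter could not change the genes with 1 probe, such as Cd3e, Cd3g and Cd247.

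Cd3g encodes the gamma chain, which joins epsilon in one of the CD3 pairs. Its signal was 9700 on wild-type and 5650 on the knockout-labelled array, a difference of -0.71 ± 0.20. Over the 11 alternatives this ran from -0.75 to -0.31, the latter with normexp. Probes with signals between 5000 and 10000 had a median of 0.05 and an SD of 0.39.

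Cd3d encodes the delta chain, the partner of epsilon in the other pair. Its signal was 4880 on wild-type and 5440 on the knockout-labelled array, so unlike its neighbours it was not lower. The difference of 0.22 ± 0.20 was about the size of the scanner error. Relative to the difference of Cd3d, that of Cd3e was -1.35 and that of Cd3g -0.94 (log2).

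Cd247 encodes the zeta chain, which carries the most tyrosine motifs of the complex. Its only probe was dim, with signals of 61.6 and 34.3 on wild-type and the knockout-labelled array and a difference of -0.78 ± 0.25. Dim probes as a whole were lower on the knockout-labelled array, where probes with signals between 25 and 50 had a median of -0.34 and an SD of 0.64. The lowest signal well above background was 24.6 on wild-type and 9.76 on the other. Cd247 passed 2-fold with normexp (-1.10) and was lower under all 11 alternatives.

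**Figure D2:**
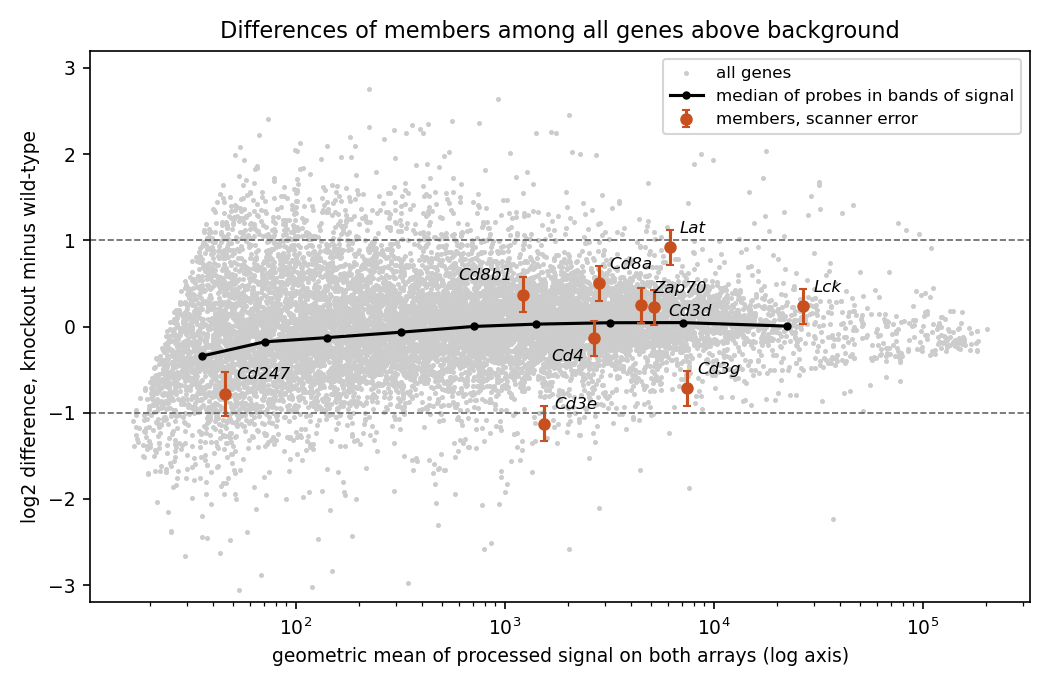
The x axis is the geometric mean of a gene's processed signal on both arrays (log axis) and the y axis its log2 difference, knockout minus wild-type. Grey points are the genes well above background on both arrays, of which 14 lie beyond the y range. The black line joins the medians of probes in bands of signal, from -0.34 in the dimmest band, coloured points are the members with their scanner error, and dashed lines mark 2-fold. Cd3e lies below the lower dashed line, and Lat at 0.92 just below the upper one.

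CD4 and CD8 are the coreceptors of helper and cytotoxic T cells. The brighter Cd4 probe gave 2870 on wild-type and 2500 on the knockout-labelled array. The difference of -0.13 ± 0.20 was smaller than the scanner error, and turned to 0.05 with centring on the median and 0.20 with normexp. A dimmer Cd4 probe, spotted 10 times, had a difference of -0.55 ± 0.23. Its spots ran from 69.6 through a median of 75 to 87.1 on the wild-type array (9 spots without an outlier) and from 43.3 through 49.3 to 52.9 on the knockout-labelled array. Probes with signals between 50 and 100 had a median of -0.18 and an SD of 0.68.

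Cd8a encodes the alpha chain, found in both forms of CD8. Its brighter probe was also spotted 10 times, with spots from 2290 through a median of 2420 to 2530 on wild-type and from 3150 through 3305 to 3350 on the knockout-labelled array. The difference was 0.50 ± 0.20, a 1.42-fold higher signal, and 0.74 with normexp. A dimmer probe, assigned to another Cd8a transcript in the RefSeq table, gave 220 and 202 and a difference of -0.06 ± 0.21, and the mean over both probes was 0.22. The probes of Cd8a thus differed by 0.56 and those of Cd4 by 0.41. A gap between probes at least as wide was seen in 31.0% and 41.9% of the 2901 genes with several probes above background on both arrays.

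Cd8b1 encodes the beta chain, which T cells of the CD8 lineage pair with alpha and which dendritic cells lack. Its only probe gave 1100 on wild-type and 1360 on the knockout-labelled array, a 1.29-fold higher signal with a difference of 0.37 ± 0.20. It was higher under all 11 alternatives, from 0.30 to 0.56, though those that choose among probes could not change it. Cd8b1 and Cd8a neighbour each other on chromosome 6 with 0 annotated genes between them.

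Repeated spots showed how finely 1 hybridisation was read. For Cd8a the SD over spots was 0.040 on wild-type and 0.027 on the other, and for the dimmer Cd4 probe 0.099 and 0.080 (log2). The spots of the 2 arrays did not overlap for either probe, with Cd8a higher and Cd4 lower. Among the 258 probes spotted 10 times and above background on both arrays, spots did not overlap with the knockout higher in 40.3% and with the knockout lower in 27.1%, 67.4% in all. Such separation was common on these arrays. Spots of 1 array share the same RNA and labelling, so they say nothing of the spread between cultures.

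**Figure D3:**
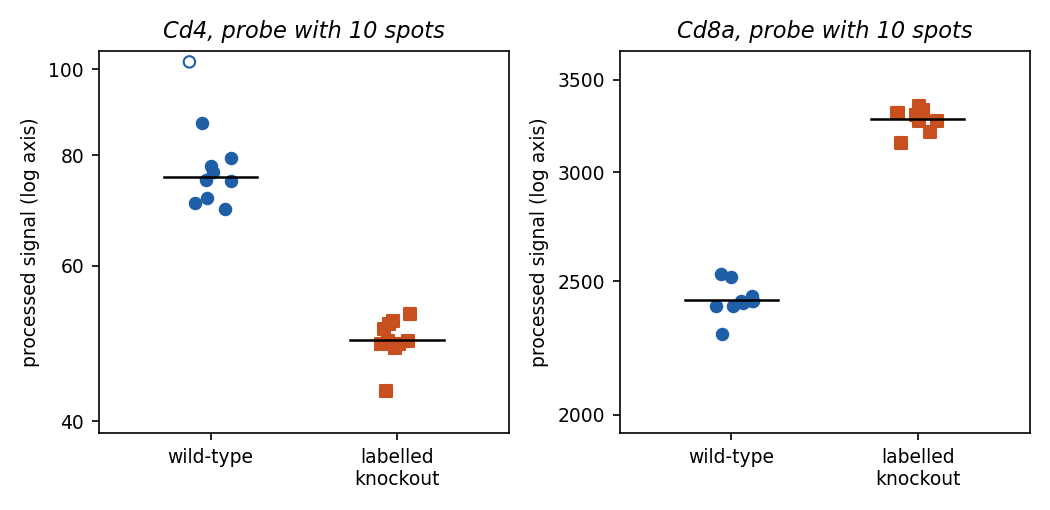
Each point is 1 spot of the probe with 10 spots for Cd4 (left) or Cd8a (right), with processed signal on a log axis, and the 2 arrays side by side. Horizontal lines are geometric means, and the open circle is a spot flagged as an outlier and left out. Cd4 spots lie between 69.6 and 87.1 on wild-type and between 43.3 and 52.9 on the other, and Cd8a spots between 2290 and 2530 and between 3150 and 3350.

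Set against each other, CD4 was lower than CD8 in its difference between arrays. The mean difference of the CD8 chains was 0.44, and that of Cd4 lay -0.57 ± 0.25 from it on the log2 scale (scanner errors combined). Differences of single genes had an SD of 0.56 over all genes, and Cd4, Cd8a and Cd8b1 ranked above 37.0%, 86.3% and 80.6% of them. Probes with signals between 2000 and 5000 had an SD of 0.43, and those between 1000 and 2000 one of 0.49. How widely such a contrast varies among other genes was not measured. This contrast, which does not depend on how an array is centred, was -0.64 with the mean over probes, -0.70 with the dimmest probes, -0.43 with the background-subtracted signal and -0.39 with normexp. The sign was the same under all 11 alternatives, but not all of them could change it. Other ways of centring, dropping the background filter and keeping outlier spots left the contrast at -0.57, since the same probe values entered it. Levels of Cd4 and Cd8 probes were not compared, because different probes do not share a scale. In a bulk sample, fewer cells of a type and less RNA per cell cannot be told apart.

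Lck encodes the kinase that starts TCR signalling from the coreceptor tails. Its signal was 25100 on wild-type and 28200 on the knockout-labelled array, a difference of 0.23 ± 0.20. Zap70, the kinase recruited to CD3, gave 4200 and 4770 by its brighter probe, a difference of 0.25 ± 0.20. The dimmer Zap70 probe gave 972 and 950, a difference of 0.03 ± 0.20. For both kinases the difference by the brighter or only probe was little larger than the scanner error.

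Lat encodes the membrane scaffold downstream of ZAP-70. It was the highest of the members, with a signal of 4560 on wild-type and 8240 on the knockout-labelled array, 1.89-fold higher. The difference of 0.92 ± 0.20 passed 2-fold with centring on the median (1.11) and with normexp (1.15). Probes with signals between 5000 and 10000 had a median of 0.05 and an SD of 0.39, and 1.23% of them were at least 2-fold higher. The difference of Lat exceeded that of Cd3e by 2.05 on the log2 scale.

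**Figure D4:**
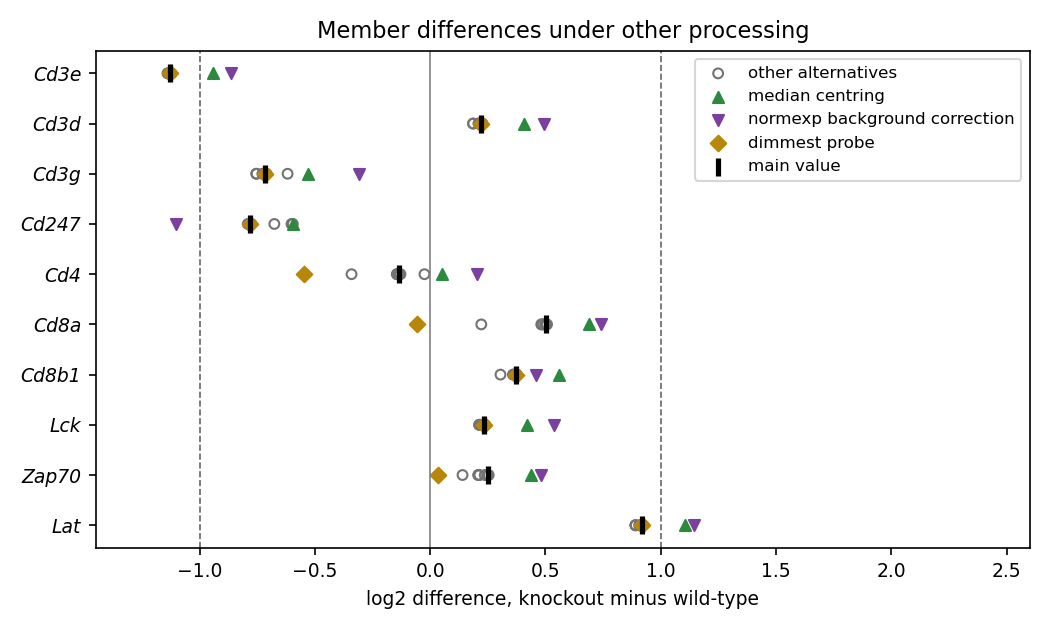
Each row is a member and the x axis its log2 difference, knockout minus wild-type, as reported (black bar) and under 11 other ways of processing, with dashed lines at 2-fold. Cd3e crosses inside 2-fold with median centring (-0.94) and normexp (-0.86), Lat crosses outside with the same settings (1.11 and 1.15), and Cd4 changes sign with them (0.05 and 0.20).

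The authors' deposited table of log2 values gave these differences for the brighter or only probes: -1.14 for Cd3e, -0.75 for Cd3g, 0.19 for Cd3d, -0.60 for Cd247, -0.14 for Cd4, 0.48 for Cd8a, 0.36 for Cd8b1 and 0.89 for Lat. In the same authors' deposited table the dimmer Cd4 probe had -0.40 and the dimmer Cd8a probe 0.02.

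In the 4 lists of genes that act around the receptor, 0 measured members were at least 2-fold higher or lower by their brightest probe. The kinases and phosphatases at the receptor had 8 of 11 measured members higher, 3 lower and a median of 0.11. Fyn, a kinase related to Lck, had -0.83 ± 0.21 and Lime1, a membrane adaptor, 0.43 ± 0.20. Pag1, which holds the inhibitory kinase CSK at the membrane, was above background on the wild-type array only. Its signals were dim, 28.6 there and 7.51 on the knockout-labelled array (-1.86 ± 0.51), at least 2.80-fold higher on wild-type. The lowest signal above background was 24.6 on wild-type and 9.76 on the other, so these 2 calls were not made at a like level. Dim probes as a whole were lower on the knockout-labelled array, as given for Cd247.

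The adaptors and signalosome had 10 of 14 members higher, 4 lower and a median of 0.33. Fyb, an adaptor of integrin activation, had 0.60 ± 0.20, and Plcg1, the phospholipase that LAT recruits, -0.79 ± 0.38 at dim signals of 27.9 and 15.4. With normexp 1 member of this list, Plcg1, passed 2-fold (-1.27). Its second probe was not above background on the wild-type array and gave no usable value. A second probe of Fyb had 1.04 ± 0.20, past 2-fold. The negative regulators had 8 of 12 higher, 4 lower and a median of 0.07. Cbl, a ubiquitin ligase, had -0.60 and Sla2, an adaptor that lowers receptor levels, -0.59 by its brighter probe. A second Sla2 probe had -0.11 ± 0.27, and with normexp Sla2 had -0.94. Cd6, also in this list, had 0.04 by its brighter probe. Its second probe had -1.38 ± 0.28, past 2-fold, at dim signals of 62.7 and 23.1.

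The downstream branches had 7 of 13 higher, 6 lower and a median of 0.08, which was -0.01 with the mean over probes, some of them below background on 1 array. Nfatc2, a calcium-driven transcription factor, had 0.59 by its brighter probe. A dimmer Nfatc2 probe was not above background on the knockout-labelled array, and a mean that takes it in has no settled sign. Sos1, a Ras activator, had 0.49, which turned to -0.76 with normexp. Of the 7 TCR constant chain and pre-TCR genes in the lists, 1 matched a probe here, Ptcra, and it was above background on neither array. The other 6 were not analysed here.

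Of 12 measured factors that set or accompany the CD4 or the CD8 fate, 7 were higher and 5 lower. By their brightest probe 0 were past 2-fold, where 7.59% of all genes were. A second probe of Tcf7 had -1.14 ± 0.21, past 2-fold, where its brighter probe had -0.43. Their median of 0.09 turned to -0.17 with normexp, -0.10 with the mean over probes, -0.26 with the dimmest probes and -0.07 with the background-subtracted signal. Gata3, which favours the CD4 fate in the thymus and the TH2 fate later, had 0.54 ± 0.20, and Myb, a factor of T cell development, -0.93 ± 0.20. Other T cell surface markers had 8 of 12 higher and a median of 0.12. They also included Cd6, whose second probe was past 2-fold lower, as given above. Il2rb, a chain of the IL-2 receptor, had 0.99 (1.17 with median centring and 1.18 with normexp, past 2-fold). Cd28, the costimulatory receptor, had -0.81.

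Markers of other cell types that can carry CD8 or CD4, or be present in spleen and lymph node, were measured too. For comparison, 50.4% of all genes were above 0, 3.95% at least 2-fold higher and 3.64% at least 2-fold lower. Of the CD8 and NK cell markers, 9 of 11 were higher and 2 lower, with a median of 0.34, which was -0.08 with normexp. Under normexp 5 of 11 were higher and 6 lower, with 1 past 2-fold in each direction. The summed signal of these markers, in units of each array's 75th percentile, was 32.01 on wild-type and 65.4 on the other. The Klra1 probe alone made up 16.2 and 47.5 of these sums, and the other 10 markers summed to 15.9 and 17.9. Klra1 went from 8790 to 24700 between the arrays, 2.94-fold, and belongs to a family of closely similar NK receptors that its probe may not separate. Klrc1, another NK receptor, passed background on the knockout-labelled array alone, with signals of 24.1 on wild-type and 32.1 there. The lowest signal above background was 24.6 on wild-type and 9.76 on the other, so the 2 calls were not made at a like level. Its difference was 0.48 ± 0.38. The 2 lower markers of this list were Gzmk, at -0.88 ± 0.22 with signals of 102 and 52.8, and Klrb1c, at -0.19 ± 0.22 by its brighter probe. Of the markers of CD8 dendritic cells, which carry CD8 alpha without beta, 8 of 9 were higher, with a median of 0.65 (0.10 with normexp), a summed signal of 20.7 and 24.1 (3.62 and 4.44 without Irf8, the brightest), and 1 marker below background on both arrays. Cadm1, an adhesion molecule of these cells, was 2.61-fold higher, but at 0.10 on the log2 scale with normexp. In each of these lists 1 marker passed 2-fold. The part of such cells in the values of the CD8 chains was not tested.

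Plasmacytoid dendritic cells, many of which carry CD4 in the mouse, had 4 of 8 markers higher and 4 lower. Their median was -0.0038 and their summed signal 222 and 214, and with median centring and normexp the medians were 0.18 and 0.19. Ccr9, a chemokine receptor, had -0.75 and Pacsin1 -0.52 (-0.26 with normexp). Siglech, the brightest of this list, had -0.08 ± 0.20 by its brighter probe and 0.51 ± 0.20 by its second. The probes of Tcf4 differed the other way, at 0.06 ± 0.20 and -0.30 ± 0.30. With the mean over probes 4 markers were again higher and 4 lower. The B cell markers had 9 of 10 lower, 2 of them at least 2-fold (Blk and Cd79a), a median of -0.22 and a summed signal of 205 and 176, of which Ms4a1 made up 92.6 and 69.0. With median centring 6 of 10 were lower, 1 at least 2-fold since Cd79a came to -0.997, and the median was -0.03. The macrophage markers had 11 of 11 measured members higher and 5 at least 2-fold, among them Mrc1, Vcam1, C1qc and Adgre1. Beside these lists, 50.4% of all genes were above 0 and 49.6% below, with 3.95% at least 2-fold higher and 3.64% at least 2-fold lower. C1qa had 0.10 ± 0.21 and C1qb 0.30 ± 0.23, against 1.25 for C1qc. Csf1r had 0.90 by its brightest probe, but its dimmer probes had -0.57 ± 0.21 and -0.14 ± 0.26. Vcam1 was within 2-fold with the mean over probes (0.82) and by its dimmer probe (0.28), and Mrc1 with normexp (0.99). The list then had 4 members past 2-fold in each case, and with the dimmest probes 10 of 11 higher. Their median was 0.90 (0.20 with normexp, with 7 of 11 higher) and their summed signal 24.8 and 51.6. In cultures labelled CD4 T cell, Cd4, every CD3 chain, Cd8a and Cd8b1 were above background on both arrays. By their brightest probe, so were all 10 B cell markers and all 11 macrophage markers matched to a probe. Of the 20647 genes matched, 12955 were. On wild-type the B cell markers ran from 98.7 for Blk to 50400 for Ms4a1. The part of these other cell types in the differences of the CD3, CD4 and CD8 chains was not tested.

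**Figure D5:**
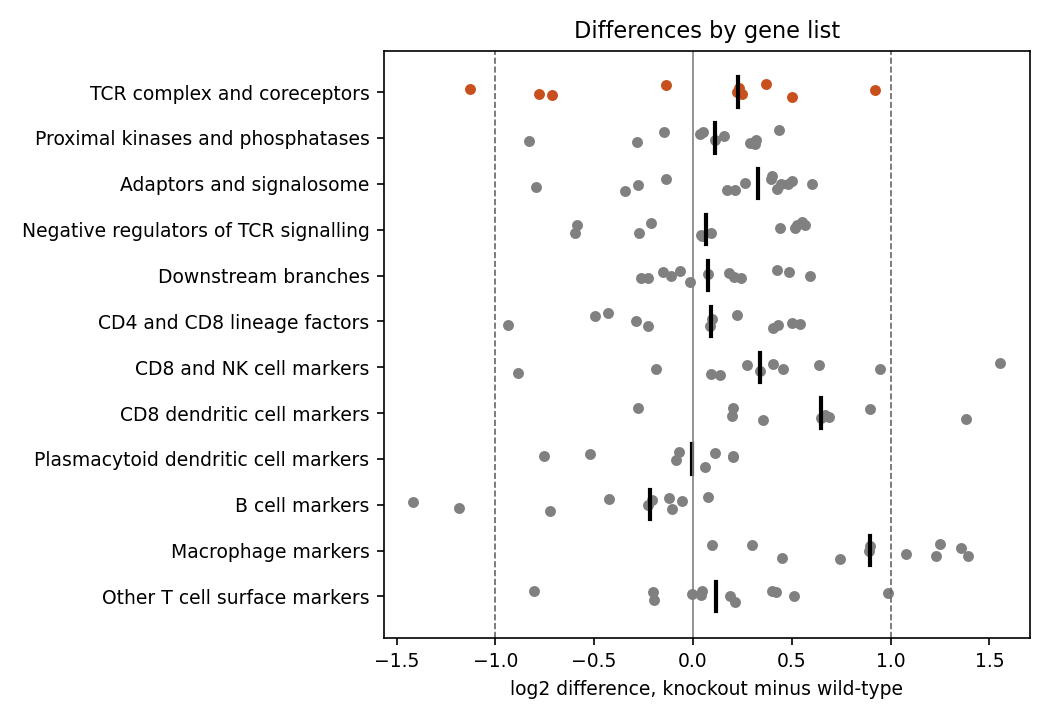
Each point is a gene well above background on both arrays, placed by its log2 difference, knockout minus wild-type, within the members (coloured) and 11 lists, and vertical bars are list medians. The members' median is 0.23, the macrophage markers lie furthest right with a median of 0.90 and the B cell markers furthest left with -0.22, and dashed lines mark 2-fold.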

How the data were processed

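RNA from 2 cultures was hybridised to 1-colour mouse arrays, 1 per genotype, taken from the genotype label. The scanner software was Agilent Feature Extraction, version 11.0.1.1 (per the submitters' processing notes). The deposited processed signal is an intensity that the scanner software background-subtracted and detrended, per the file headers. The deposited value table holds log2 values normalized by a method not given in the sources used here. Control spots and outlier spots (228 and 138 of 43020) were left out, spots of a probe were averaged, and 27214 of 39411 probes matched 1 gene through unversioned accessions in the GRCm38.p6 RefSeq table. The headers name another build, so only the promoter windows carry coordinates, in their own build. A fold given as "at least" divides by the array's lowest signal above background, or by the dim probe itself where that was larger. Named list genes were the up to 4 largest differences past 2-fold, or otherwise the 2 largest, among genes above background on both arrays. All other list genes named, among them Pag1, Klrc1, Ptcra, Gzmk, Klrb1c and Siglech, fall outside this rule and were named after their values were seen. Members and lists were chosen with earlier results of these data known. Alternatives used limma 3.58.1 in R 4.3.3 (quantile, cyclic loess, normexp with offset 50 on the median intensity) and Python 3.11.15. The functions were tested on simulated data.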

Additional observations from a re-analysis of the deposited data

How the results depend on the processing

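No paired analysis was possible because each genotype had 1 array, and for the same reason no replicate could be left out. With centring on the median 1 member was at least 2-fold higher and 0 lower, among 801 and 292 genes. With normexp 1 member was higher, Lat, and the 1 lower was Cd247 in place of Cd3e, the members' median was 0.47, and 205 genes were higher and 1166 lower. With the dimmest probe of each gene, chosen after seeing the data as was the background-subtracted signal, the members' median was -0.013. At 1.5-fold, 1 member was higher and 3 lower, among 1419 and 1549 genes. At 3-fold 0 members were lower, among 85 genes higher and 112 lower. Without the background filter 1096 genes were higher and 4294 lower. That count takes in all 20647 genes, of which 12955 were well above background on both arrays. The lowest signal well above background was 24.6 on wild-type and 9.76 on the other, so the 4294 cannot be read as measured decreases. The causes were not tested. The members and the list genes named by the rule had 352 values under the 11 alternatives. Of these, 36 moved by more than the scanner error and 0 of those past 2-fold changed sign. Low signal limits Cd247 and the dimmer Cd4 probe.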
